A study of Mus musculus with 42 samples.

Results

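In experiment 2 the RNAs described here lost part of their association with tagged Tnrc6a in cells labelled Ago2KO. They lost little or none in cells labelled Trim71KO there, and number 144 of the 19866 genes in the table of that experiment. They were chosen on the values of that experiment by a rule on the IP to input ratio, R, the log2 of mean CPM plus 0.5 in bead-bound RNA (IP) minus the same in input RNA, where CPM is a gene's count relative to the library total. R had to be at least 1 higher in tagged than in untagged cells, at least 0.7 lower in Ago2KO than in tagged cells, and more than -0.3 in Trim71KO minus tagged cells. The mean input CPM of tagged cells had to be at least 2, and Ago2, Bcl2l11 and Ei24 were left out by name. Of 1152 genes with the tag difference and the input level, 199 had the difference in Ago2KO cells, and 52 of these also fell to or past the Trim71 limit. After the named genes were left out, 144 remained, 134 with a gene symbol and 10 with an Ensembl identifier alone. The other 1008 of the 1152 serve as the set for comparison and are called the other tag-enriched genes.

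All cells were mouse embryonic stem cells of 129S6/SvEvTac background with the reporter yGlob [GFP_5xT71BS] and a stable FLAG-Cas9::T2A::Blasticidin transgene, grown on gelatin with serum and LIF. Untagged cells had no tag, tagged cells carried HA-AVI-Tnrc6a, and the cells called Trim71KO and Ago2KO here carried HA-AVI-Tnrc6a and were labelled Trim71-/- or Ago2-/-. Lysates of triplicate dishes were incubated with anti-HA magnetic beads, and input and IP RNA was sequenced as stranded total RNA in 42 libraries, 3 per group. Experiment 1 held untagged, tagged and Trim71KO cells in 18 libraries of 12587257 to 23657840 counts, and experiment 2 added Ago2KO cells and held 24 libraries of 16296447 to 21026552 counts. Whether each line was a single clone is not given in the sources used here, so a difference between genotypes cannot be told apart from a difference between lines, and p-values measure the spread between these dishes.

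Tnrc6 proteins, also called GW182, are bound by Argonaute proteins and bring the deadenylation machinery to their target mRNAs, which are then repressed and degraded. Argonautes find these targets through a microRNA, whose seed pairs mostly with sites in the 3′ UTR. Ago2 is the mammalian Argonaute that can also cleave its target, and Ago1, Ago3 and Ago4 load microRNAs as well. Trim71 is a stem cell RNA-binding protein of the TRIM-NHL family that recognises RNA hairpins rather than microRNA sites.

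Some microRNAs of families studied in mouse embryonic stem cells are shown because they are among the guides through which Ago2 could find such RNAs. The mature sequences are from RefSeq (GRCm38.p6), written 5′ to 3′ with the seed, bases 2 to 8, in capitals. The first 3, of the miR-290 cluster on chromosome 7, and miR-302b share a seed, and miR-17 and miR-20a share another that overlaps it:
mmu-miR-291a-3p: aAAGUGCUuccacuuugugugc
mmu-miR-294-3p: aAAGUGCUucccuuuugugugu
mmu-miR-295-3p: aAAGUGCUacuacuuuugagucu
mmu-miR-302b-3p: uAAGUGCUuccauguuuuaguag
mmu-miR-17-5p: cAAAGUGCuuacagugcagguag
mmu-miR-20a-5p: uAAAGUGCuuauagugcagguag
mmu-miR-92a-3p: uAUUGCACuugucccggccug
Mature microRNAs were not measured, and matches of these seeds in the 144 RNAs were not analysed here. Reads on the 6 table entries for miR-290 cluster hairpins, which come from precursor or primary RNA, summed in input of experiment 2 to 4.63 to 9.32 CPM in untagged, 5.57 to 9.46 in tagged, 7.08 to 9.08 in Trim71KO and 7.75 to 8.16 in Ago2KO cells. These ranges overlapped.

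The targeted genes and the cell type were checked first. Ago2 stood at 352 to 427 CPM in tagged input of experiment 2 and at 169 to 178 CPM in Ago2KO input, so its RNA was lower but present. Trim71 stood at 291 to 339 CPM in tagged input and 389 to 405 CPM in Trim71KO input of experiment 2, and at 242 to 295 and 317 to 322 CPM in experiment 1. Its RNA was thus higher in the cells labelled Trim71KO, and because the deleted part of the gene is not given in the sources used here, these counts do not check that label. Tnrc6a, the bait's own RNA, reached 12159 to 20322 CPM in tagged IP and 14156 to 28337 CPM in Ago2KO IP, against 73.4 to 89.9 in untagged IP. All 9 embryonic stem cell markers were present, with summed input levels of 7344 to 9162 CPM over the 2 experiments. Of 8 primitive endoderm markers, 7 were in the table of experiment 2, none at 0 in every library, and summed to 25.2 to 28.3 CPM in untagged and tagged input but to 9.29 to 12.3 CPM in both knockouts. In experiment 1 all 8 were present, at 71.0 to 99.4 CPM in untagged and tagged input and 14.7 to 17.6 CPM in Trim71KO input. Of 8 fibroblast markers 3 were in the tables, and their sum in experiment 1 was 34.4 to 38.1 CPM in untagged and tagged and 76.1 to 81.9 CPM in Trim71KO input. In experiment 2 it was 49.8 to 62.6 CPM in untagged and tagged, 61.2 to 65.6 CPM in Trim71KO and 47.6 to 54.5 CPM in Ago2KO input. The part of these cell types in the results was not tested, and in bulk RNA fewer cells of a type and less RNA per cell cannot be told apart.

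In experiment 2 the 144 RNAs were, by their median, near input level on the beads without the tag, several times above it with the tag, and in between in Ago2KO cells. Untagged cells had a median R of -0.15, tagged cells of 1.78, Trim71KO cells of 1.93 and Ago2KO cells of 0.82. For the other tag-enriched genes the medians were -0.18, 1.35, 1.50 and 1.14. Since these values chose the RNAs, they are a description. The tag difference had a median of 1.94 (1.01 to 4.57), and the Ago2KO minus tagged difference had a median of -0.86 (-1.71 to -0.70), against -0.30 for the other tag-enriched genes and 0.11 for the 14960 genes of tagged input CPM of at least 2. The Trim71KO minus tagged difference had a median of 0.15 (-0.29 to 0.80) and was above 0 for 106 and below 0 for 38 of them. The edgeR fit of experiment 2 called tag-specific enrichment higher for 144 (18.9% of genes tested, 8.77% lower), Ago2-dependent enrichment lower for 137 (3.77%, with 0.384% higher) and Trim71-dependent enrichment higher for 5 and lower for 0 (0.753% and 0.738%). It called enrichment higher in Trim71KO than in Ago2KO cells for 140 (8.94%, with 2.86% lower), and nothing is read from any of these calls.

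**Figure D1:**
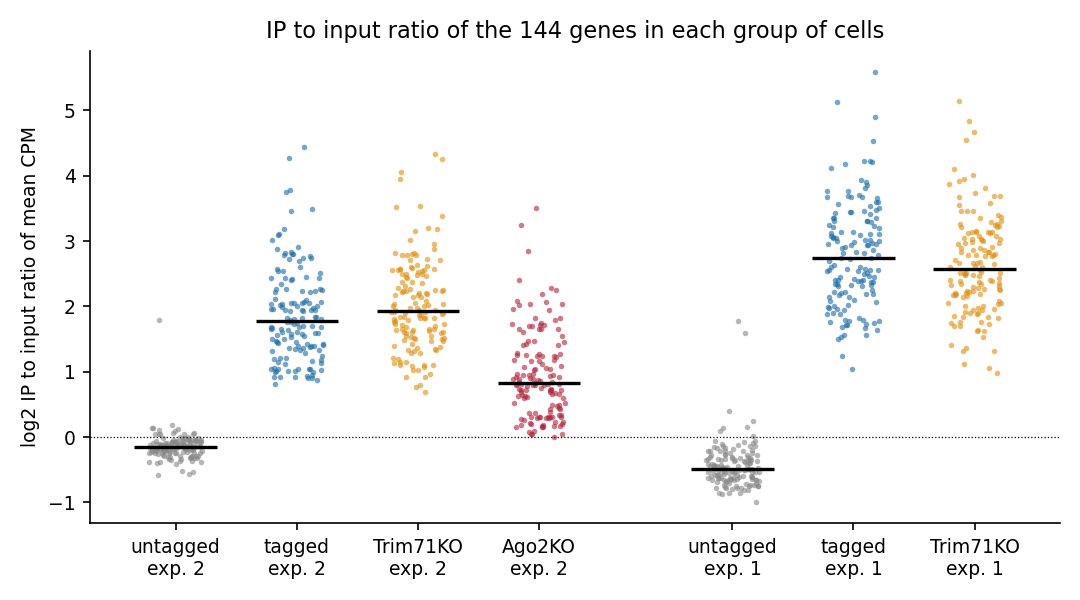
The log2 IP to input ratio of mean CPM (vertical axis) for each of the 144 genes (points) in the 4 genotypes of experiment 2 and the 3 of experiment 1, with the median as a bar. In experiment 2, which chose the genes, the medians are 1.78 in tagged and 0.82 in Ago2KO cells, and the untagged points lie near 0 except Cgas at 1.79.

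The loss without Ago2 was partial. The share of the log2 tag difference left in Ago2KO cells had a median of 52.4% (11.4 to 79.6%), against 82.5% for the other tag-enriched genes. The rule parted these sets on the same libraries, so this contrast and the counts that follow are a description. R was above its untagged value in Ago2KO cells for all 144, and at least 1 above it for 71. All 3 Ago2KO IP libraries lay above all 3 untagged IP libraries for 141 RNAs (23.7% of the genes tested in experiment 2). Of the 144, 53 had a difference between -0.8 and -0.7, and 36 one of at most -1. Just inside the limit stood Mfn2, a mitochondrial fusion protein, at -0.71, and Mtln, Epn1 and Prkaa1 at -0.70. Just outside stood Unk at -0.70, Kat8 and Ttc30b at -0.69 and Ssbp2 at -0.68, so the limit separates RNAs of nearly equal loss.

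Tmem50b, which encodes a membrane protein of the endoplasmic reticulum and Golgi (GRCm38.p6 chr16:91574508-91597680), had the largest loss. Its tagged IP libraries held 140, 136 and 124 CPM, its Ago2KO IP libraries 47.3, 45.2 and 48.4 CPM, and its untagged IP libraries 29.5, 33.8 and 28.9 CPM. Input held 34.5, 32.1 and 31.9 CPM in tagged and 42.8, 37.8 and 33.7 CPM in Ago2KO cells. The IP groups did not overlap, the Ago2KO libraries lay much closer to the untagged than to the tagged ones, and the input groups overlapped. The IP to input ratio was 4.01-fold in tagged, 4.56-fold in Trim71KO and 1.23-fold in Ago2KO cells, a difference of -1.71 that left 17.2% of the tag difference.

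Zfp385a, a zinc finger protein that binds RNA and interacts with p53 (chr15:103313895-103340086), lost nearly as much in log2 but from a far higher ratio. Its IP libraries held 840, 677 and 536 CPM in tagged, 777, 712 and 736 CPM in Trim71KO and 358, 251 and 236 CPM in Ago2KO cells. Tagged and Trim71KO IP overlapped, and all Ago2KO libraries were lower than both while still well above the untagged 43.6, 51.8 and 48.2 CPM. With the tag the ratio was 13.5-fold and without Ago2 4.19-fold, a difference of -1.69 with 56.2% of the tag difference left.

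Cfl2, cofilin 2, an actin-severing protein (chr12:54858815-54862877), held 373, 316 and 268 CPM in tagged IP and 179, 141 and 140 CPM in Ago2KO IP. Its input held 50.4, 45.0 and 45.9 CPM in tagged and 72.0, 69.3 and 69.3 CPM in Ago2KO cells. For this gene neither the IP nor the input groups overlapped, with IP lower and input higher in Ago2KO cells, and R differed by -1.63.

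Nanos1, an RNA-binding partner of Pumilio proteins (chr19:60755987-60759914), held 61.5, 48.1 and 38.5 CPM in tagged IP, 35.0, 32.3 and 32.1 CPM in Trim71KO IP and 23.1, 20.1 and 20.1 CPM in Ago2KO IP. Its input was 10.2, 9.31 and 10.2 CPM in tagged, 11.6, 10.7 and 12.2 CPM in Ago2KO and 5.45, 4.58 and 3.85 CPM in Trim71KO cells. Trim71KO IP and input both lay below the tagged libraries, so the ratio rose from 4.80-fold to 6.56-fold in Trim71KO cells, whereas it was 1.80-fold in Ago2KO cells.

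Other RNAs at this end of the order had differences of -1.70 to -1.32. Gpkow, a spliceosome-associated G-patch protein, went from a 7.55-fold ratio in tagged to a 2.67-fold ratio in Ago2KO cells, and Spryd3 from 8.57-fold to 3.04-fold. Klhl28, of the kelch-like family of cullin adaptors, went from 5.28-fold to 1.95-fold, and Wiz, a zinc finger partner of histone H3K9 methyltransferases, from 4.15-fold to 1.66-fold. Nt5dc2, a nucleotidase-domain protein, and Syap1 ended nearest to no enrichment, at 1.14-fold and 1.13-fold. The remaining members among the 12 largest losses were 2 genes without a symbol, ENSMUSG00000090761 at -1.70 and ENSMUSG00000044306 at -1.44.

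**Figure D2:**
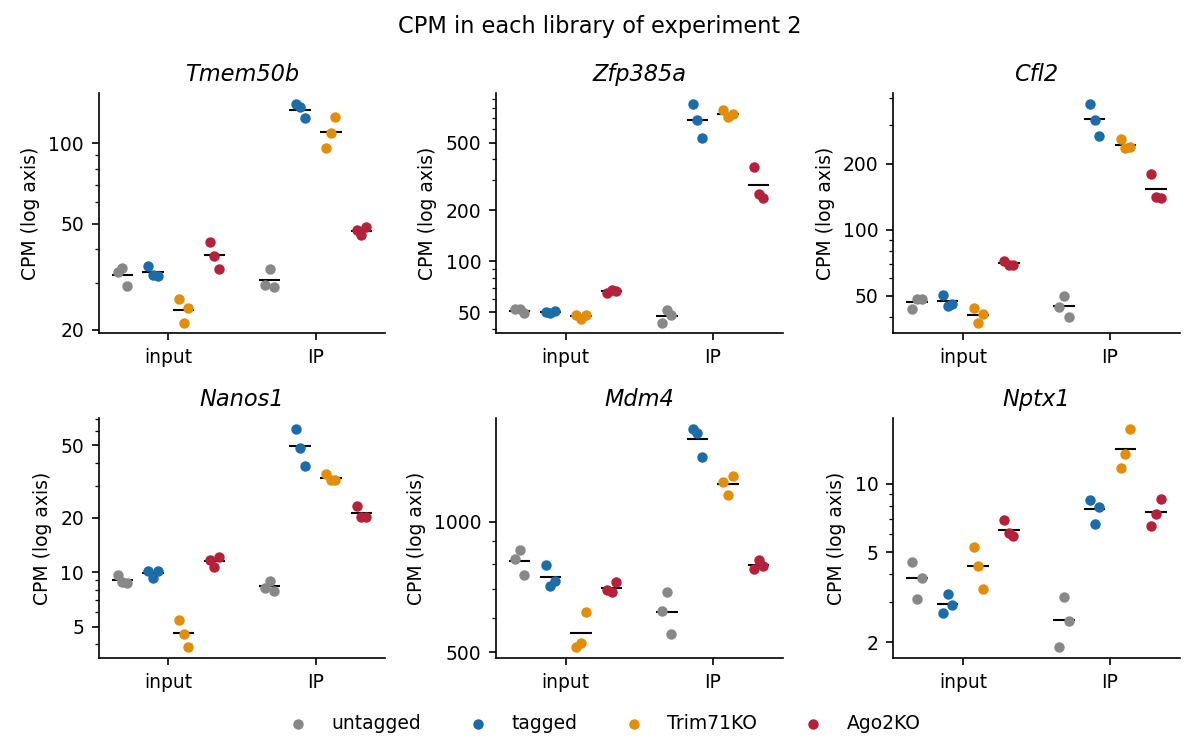
CPM (log axis) of 6 genes in each of the 24 libraries of experiment 2, input at left and IP at right of each panel, with points for libraries, colours for genotypes and bars for the mean of 3 libraries. Ago2KO IP lies below tagged IP for Tmem50b, Zfp385a, Cfl2, Nanos1 and Mdm4, whereas for Nptx1 the IP groups overlap and Ago2KO input lies above tagged input.

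The most abundant RNA of the group on the beads was Mdm4, an inhibitor of p53 related to Mdm2 (chr1:132986105-133030587). It held 1633, 1597 and 1412 CPM in tagged IP and 778, 814 and 789 CPM in Ago2KO IP, with 623, 687 and 551 CPM in untagged IP. Input was 793, 712 and 729 CPM in tagged and 697, 688 and 724 CPM in Ago2KO cells, and these overlapped. The Mdm4 ratio was 2.08-fold in tagged, 2.21-fold in Trim71KO and 1.13-fold in Ago2KO cells, and its log2 levels differed by -0.96 in IP and -0.08 in input.

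The pair of RNAs with the highest tag difference, 9530068E07Rik and Gnb5, also kept the largest share of it in log2. A loss of a given log2 size leaves a larger share of a larger tag difference, so a high share does not mean a small loss. The Gnb5 ratio fell from 19.3-fold in tagged to 9.45-fold in Ago2KO cells, a difference of -1.03. 9530068E07Rik (chr11:52396428-52408723) held 1006, 723 and 636 CPM in tagged IP, 641, 394 and 423 CPM in Ago2KO IP and 34.9, 36.0 and 34.9 CPM in untagged IP. Tagged and Ago2KO IP overlapped by a single library pair, and 79.6% of the tag difference was left. Gnb5, a G protein beta subunit that pairs with RGS proteins (chr9:75306288-75345923), held 217, 177 and 154 CPM in tagged and 138, 90.0 and 104 CPM in Ago2KO IP, without overlap, and kept 77.1%. Rfx4, a transcription factor of the RFX family, kept 75.3%, Taf9b, a TFIID subunit, 66.5%, and Ficd, which AMPylates the chaperone BiP, 76.1%. Among the other RNAs of highest IP level, Nacc1, a BTB-domain transcriptional regulator, kept 23.5%, Sik1, a salt-inducible kinase, 52.9%, and Uhmk1, a kinase with a splicing factor motif, 58.4%.

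Loss of the ratio came from less RNA in IP, from more RNA in input, or from both. The log2 IP level was lower in Ago2KO than in tagged cells for 143 of the 144, by a median of -0.64, and the log2 input level was higher for 128, by a median of 0.26. Over the 14960 genes of tagged input CPM of at least 2 the medians were 0.07 and -0.02. IP was lower and input higher for 127, both were lower for 16, and IP was higher for 1. The IP part was the larger for 120 RNAs and the input part for 24, and 55 would have met the -0.7 limit on IP alone. All 3 Ago2KO IP libraries lay below all 3 tagged IP libraries for 123 RNAs (10.3% of genes tested), and all 3 Ago2KO input libraries lay above all 3 tagged input libraries for 104 (12.3%) and below for 3 (17.1%). In the edgeR fit of experiment 2 input was called higher in Ago2KO cells for 53 (4.38% of genes tested) and lower for 0 (2.57%). Input is part of the ratio in the rule, so nothing is read from these counts. Among the other tag-enriched genes 82 of 1008 were called higher in input.

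**Figure D3:**
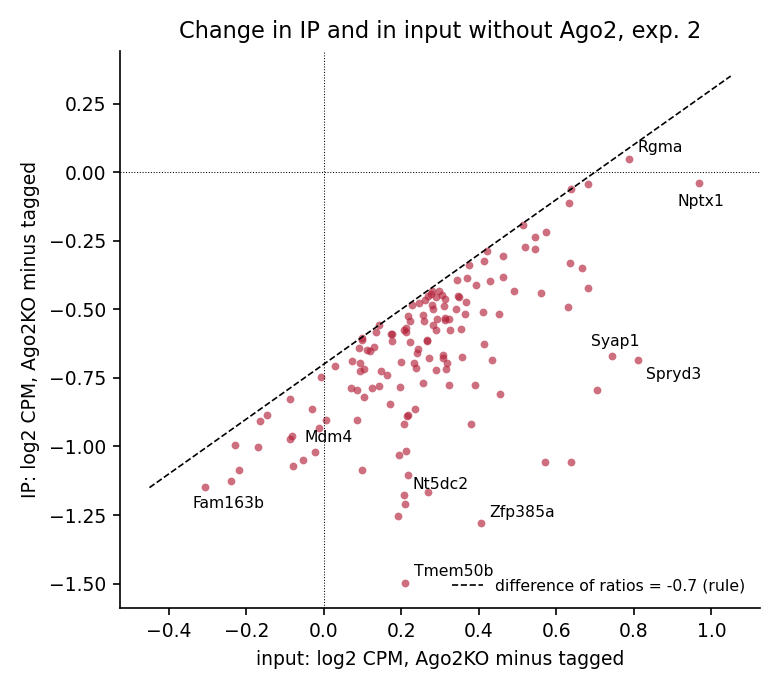
Change in log2 CPM from tagged to Ago2KO cells of experiment 2 in input (horizontal axis) and in IP (vertical axis), with 1 point for each of the 144 genes and a dashed line at the -0.7 limit of the rule. Most points lie at lower IP and higher input, with Tmem50b at the lowest IP and Nptx1 at the highest input.

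Nptx1, neuronal pentraxin 1 (chr11:119538719-119547820), shows the input end of this range. It held 8.52, 6.66 and 7.93 CPM in tagged IP and 6.52, 7.34 and 8.58 CPM in Ago2KO IP, while its input was 2.70, 3.28 and 2.92 CPM in tagged and 6.91, 6.05 and 5.87 CPM in Ago2KO cells. The IP groups overlapped, the input groups did not, and the log2 changes were -0.04 in IP and 0.97 in input. Rgma, a guidance molecule and BMP co-receptor, was the only one with higher IP, by 0.05, with input higher by 0.79. Spryd3 and Syap1 combined input rises of 0.81 and 0.74 with IP falls of -0.68 and -0.67. At the other end input was lower for Fam163b by -0.31, ENSMUSG00000081739 by -0.24, Tmem38b by -0.23 and Gpr75 by -0.22. Tmem38b encodes an endoplasmic reticulum cation channel and Gpr75 a receptor, and their IP levels differed by -0.99 and -1.09.

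The 144 RNAs were set against gene families. None was on the list of microRNA pathway proteins, of which 4 were tag-enriched. Ago1 differed by -0.47 in Ago2KO cells, Tnrc6b by -0.33 and Tnrc6a by -0.07, and Ago2, whose values met the limits, was left out by name. In edgeR 3 of the 15 genes of that list were called lower in Ago2-dependent enrichment, and 0 higher (3.77% and 0.384% of genes tested). Among the other tag-enriched genes 28.2% were called lower, and the list holds Ago2 itself. All 11 table entries of reported miR-290 family targets were tag-enriched. None was a member, but Ei24 met every numeric limit of the rule and was left out by name. Among these entries ENSMUSG00000021959 and ENSMUSG00000114942 share a symbol. Cdkn1a, the p21 inhibitor, differed by -0.21, Casp2 by -0.62, Wee1 by -0.11 and Rbl2 by -0.01, and Ei24, left out by name, by -1.16. The median of the 11 entries was -0.11. Of 8 tag-enriched reported miR-17-92 targets none was a member, with E2f1 at -0.41. Bcl2l11, which differed by -1.91 in Ago2KO and 0.07 in Trim71KO cells, also met every numeric limit but was left out by name. Its absence and that of Ei24 were thus set by the rule. Of 9 tag-enriched deadenylation and decapping factors none was a member, since Dcp2 differed by -0.99 in Ago2KO but also by -0.51 in Trim71KO cells, and Cnot6 and Cnot6l by -0.68 and -0.66 in Ago2KO cells. In the edgeR fit Ago2-dependent enrichment was called lower for 2 of 11, 3 of 12 and 5 of 29 entries of these last 3 lists and higher for 0. The list counts include Ei24 and Bcl2l11. Many listed genes were tag-enriched, and of the other tag-enriched genes 284 of 1008 (28.2%) were called lower and 3 higher.

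Of the 1152 tag-enriched genes, 12.5% were members, and families are read against that share. Kinases with numbered family names gave 6 of 12 (50.0%): Prkx differed by -1.12, Stk35 by -0.88, Stk38l by -0.84, Map3k2 by -0.82, Camk1d by -0.72 and Prkaa1, the catalytic subunit of AMPK, by -0.70. Ubiquitin ligase and related genes gave 7 of 37 (18.9%), among them the cullin adaptors Klhl28 and Klhl20 and the ligase Marchf8. Zinc finger transcription factors gave 9 of 67 (13.4%), among them Zfp385a and Zbtb39, and genes named Tmem gave 5 of 20 (25.0%). Solute carriers gave 2 of 20, cell cycle genes 1 of 14, the cell cycle transcription factor E2f5, and Rab and Arf GTPases 1 of 8, Rab5b of early endosomes. TGF-beta receptors and Smads (3 tag-enriched), protein phosphatase subunits (6) and kinesins (3) gave 0.

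The rule used neither gene length nor biotype nor position. Median gene length was 4984 bases, against 5212 for the other tag-enriched genes and 3917.5 for genes of tagged input CPM of at least 2. Per length, the median tagged input level was 4.54 RPKM (the authors' reads scaled to gene length and depth), against 4.09 and 6.22. Of the 134 matched to RefSeq, 133 (99.3%) were protein-coding and 1 was a long noncoding RNA, and 92.7% of matched expressed genes were protein-coding. They lay on every autosome, and 9 of 134 (6.72%) lay on the X chromosome, against 3.09% of the other tag-enriched and 3.60% of expressed genes.

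Experiment 1, whose 18 libraries had no part in the rule, gave the test of tag-specific enrichment. All 144 RNAs passed the filter on low counts there, and all 144 were called higher with the tag by edgeR (28.1% of the 18772 genes tested, with 28.8% called lower). The other tag-enriched genes gave 1001 of 1008. The log2 difference had a median of 3.28 (0.83 to 6.26), against 2.81 for the other tag-enriched genes and -0.10 for all genes tested. All 3 tagged IP libraries lay above all 3 untagged IP libraries for the 144 (32.8% of genes tested).

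The largest rises in experiment 1 were those of RNAs already high in experiment 2. 9530068E07Rik held 1753, 1381 and 1535 CPM in tagged IP against 20.3, 19.0 and 18.7 CPM in untagged IP, higher by 6.26 in log2 enrichment (SE 0.20, edgeR adjusted p = 2.58e-17). Gnb5 held 387, 301 and 308 CPM against 5.79, 5.15 and 5.63 CPM, higher by 5.88 (SE 0.19, edgeR adjusted p = 3.07e-17). In both the groups lay far apart, and Ficd and Rfx4 at 5.26 and Zfp385a at 5.02 followed.

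The smallest rise was that of Klhl20, a cullin adaptor chosen here after its values were seen. In experiment 1 its untagged IP libraries held 165, 185 and 205 CPM against untagged input of 54.8, 54.1 and 52.1 CPM, so it was on the beads without the tag, and tagged IP held 355, 324 and 348 CPM. The groups did not overlap and the difference was 0.83 (SE 0.17, edgeR adjusted p = 1.93e-04). In experiment 2 untagged IP held 47.7, 50.7 and 50.4 CPM and showed no such excess. Cgas, the cytosolic DNA sensor, also chosen after its values were seen, was on the beads without the tag in both experiments, with an untagged R of 1.79 in experiment 2 and 1.59 in experiment 1.

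By edgeR in both experiments the tag difference was larger in experiment 1 for 143 of the 144, and smaller for Klhl20. The other tag-enriched genes also had the larger median in experiment 1, 2.81 against 1.80 in experiment 2. Across the 144 genes, which are not independent replicates, Pearson's r between the experiments was 0.881 and Spearman's rho 0.879, a description only, since the rule used the tag difference of experiment 2.

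**Figure D4:**
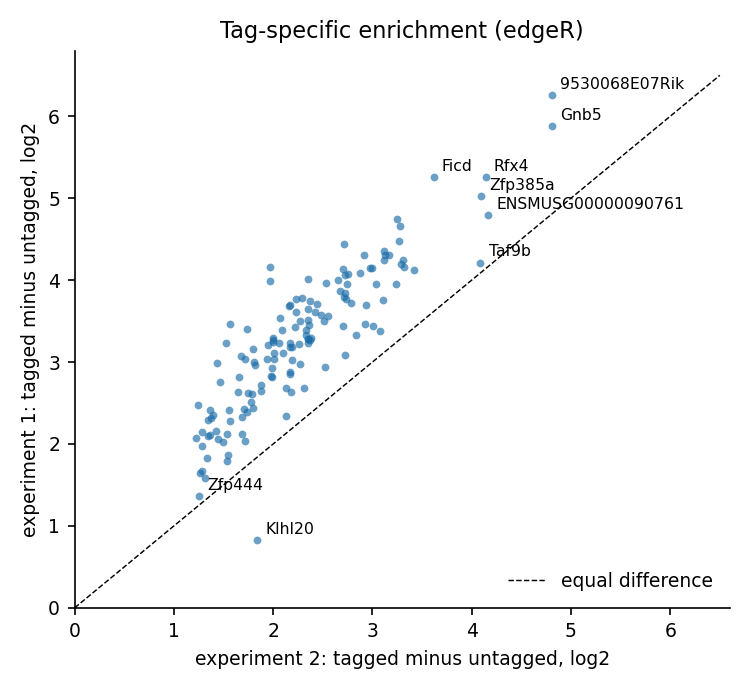
Tag-specific enrichment of the 144 genes as edgeR log2 differences, experiment 2 on the horizontal and experiment 1 on the vertical axis, 1 point per gene and a dashed line at equal values. Nearly all points lie above the line, with 9530068E07Rik and Gnb5 highest and Klhl20 alone below it.

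Trim71-dependent enrichment in experiment 1 tested the other limit of the rule in other libraries. The direction is that of cells labelled Trim71KO, whose label the Trim71 counts do not check. Of the 144 RNAs, 15 (10.4%) were called lower in Trim71KO cells (3.47% of genes tested) and 0 higher (0.272%). For the other tag-enriched genes, which the Trim71 limit had not trimmed, 294 of 1008 (29.2%) were called lower. The median was -0.26 for the 144, with 118 negative, -0.38 for the other tag-enriched genes and -0.04 for all genes tested. In IP the 3 Trim71KO libraries lay below all tagged libraries for 50 RNAs (16% of genes tested) and above for 21 (25.6%).

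The count of 15 depended on the libraries and on the scaling. Without Trim71KO IP replicate 1 there were 29 calls (28 lower and 1 higher), without replicate 3 of that group 4 (3 lower and 1 higher) and without replicate 2 there were 2, both lower. Leaving out Trim71KO input replicate 1, 2 or 3 gave 4, 3 and 3 calls, all lower, and leaving out tagged input replicate 2 or 3 gave 3 and 2, all lower. Leaving out tagged IP replicate 3 gave 6, of which 5 were lower and 1 higher. With library size alone there were 6 calls, of which 1 was higher and 5 lower, and the median of all genes moved from -0.04 to 0.07 while that of the 144 moved from -0.26 to -0.15.

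Atf7 and Msl1 were called lower with each of the 12 libraries left out and under the 6 other settings run. Msl1, a scaffold of the MSL histone acetyltransferase complex (chr11:98793508-98807862), held 264, 225 and 245 CPM in tagged IP and 150, 143 and 130 CPM in Trim71KO IP, and 41.0, 41.7 and 41.9 CPM in tagged and 35.5, 35.5 and 35.2 CPM in Trim71KO input. Neither pair of groups overlapped, and the enrichment fell by 0.67 on the log2 scale (SE 0.13, edgeR adjusted p = 0.00216). Atf7, a bZIP transcription factor (chr15:102525946-102625464), held 129, 151 and 196 CPM in tagged and 144, 124 and 112 CPM in Trim71KO IP, and 35.3, 18.4 and 25.7 CPM in tagged and 39.1, 39.8 and 43.2 CPM in Trim71KO input. Its IP groups overlapped and its input was higher in all Trim71KO libraries, and the enrichment fell by 1.07 (SE 0.22, edgeR adjusted p = 0.00525). Untagged input of Atf7 held 38.7, 34.6 and 36.2 CPM, on the whole nearer to Trim71KO than to tagged input. The part of low tagged input in this call was not tested. Atf7 stood close to the Trim71 limit of the rule in experiment 2, at -0.28, and Msl1 at -0.24.

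The other 13 RNAs lost the call without 3 to 10 of the 12 libraries in turn. ENSMUSG00000104443 had the largest difference, -1.32 (SE 0.33, edgeR adjusted p = 0.0238), and lost the call without 8. ENSMUSG00000067085 differed by -0.94 and ENSMUSG00000112823 by -0.89. Dyrk2, a kinase, differed by -0.72 and lost the call without 7 libraries, Tmem38b by -0.72, and Bri3bp by -0.68 with 3 losses. Uhmk1, Specc1, Camk1d, Zbtb39, Marchf8, Mxi1, a Max-binding repressor, and Tbl1xr1, a subunit of nuclear corepressor complexes, lay between -0.66 and -0.46. Among RNAs with the largest loss without Ago2, edgeR gave Trim71-dependent differences in experiment 1 of -0.19 for Tmem50b (adjusted p = 0.597), -0.10 for Zfp385a (0.834) and 0.08 for Nanos1 (0.905), none past the threshold. Nor was any other of the 12 RNAs with the largest loss called. Their values were -0.92 for ENSMUSG00000044306 (adjusted p = 0.154), -0.62 for Klhl28 (0.180), -0.57 for ENSMUSG00000090761 (0.120), -0.54 for Cfl2 (0.0718), -0.41 for Syap1 (0.297), -0.24 for Gpkow (0.386), -0.03 for Wiz (0.951), -0.01 for Spryd3 (0.983) and 0.40 for Nt5dc2 (0.170).

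Across the 144 genes the Trim71-dependent differences of the 2 experiments had a Pearson's r of 0.656 and a Spearman's rho of 0.681, a description only, since the rule limited the values of experiment 2. Over the 18553 genes tested in both experiments r was only 0.147 and rho 0.065. The edgeR difference was negative in both experiments for 50, negative in experiment 1 alone for 68, in experiment 2 alone for 1, and positive in both for 25.

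**Figure D5:**
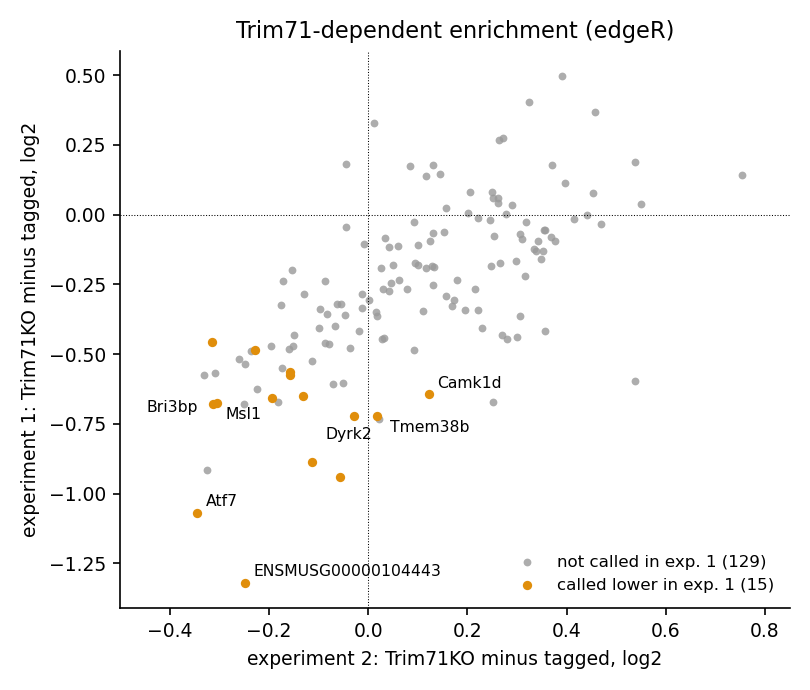
Trim71-dependent enrichment of the 144 genes as edgeR log2 differences, experiment 2 on the horizontal and experiment 1 on the vertical axis, with the 15 genes called lower in experiment 1 in orange and the other 129 in grey. The rule bounded the matching CPM difference of experiment 2 from below. The points rise together from Atf7 at lower left, and the 68 genes negative in experiment 1 alone fill the lower right.

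Input RNA of the 144 in Trim71KO cells moved both ways, as did that of genes tested in general. In experiment 1, edgeR called 21 (14.6%) higher (16.5% of genes tested) and 32 (22.2%) lower (17.4%), with a median of -0.09, and with library size alone 26 higher and 28 lower. The other tag-enriched genes gave 246 higher and 145 lower. Nptx1 rose most, from 3.08, 2.02 and 1.43 CPM in tagged to 7.14, 6.66 and 5.15 CPM in Trim71KO input, without overlap (log2 1.50, SE 0.27, edgeR adjusted p = 1.62e-04). ENSMUSG00000044306 rose by 1.37, ENSMUSG00000104443 by 1.13, Camk1d, a calcium and calmodulin dependent kinase, by 0.88, and Rgma by 0.83. Tagged input of ENSMUSG00000044306 held 1.64, 0.673 and 1.43 CPM, below the untagged 2.92, 2.74 and 2.68 CPM. That of ENSMUSG00000104443 held 1.71, 1.53 and 1.78 CPM, below the untagged 3.72, 2.69 and 2.95 CPM. For ENSMUSG00000044306 the edgeR input difference in Trim71KO cells of experiment 2 was only 0.11 (SE 0.25). Nptx1 and Rgma were also among the 3 largest input rises in Ago2KO cells of experiment 2. In experiment 2 Trim71KO input of the 144 was called higher for 12 (13.5% of genes tested) and lower for 23 (13.7%).

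Among the falls of input RNA in Trim71KO cells, Rfx4 differed by -0.98 (SE 0.28, edgeR adjusted p = 0.00833) and Smim3 by -0.97. Smim3 held 6.58, 8.20 and 6.29 CPM in tagged and 3.96, 3.71 and 3.54 CPM in Trim71KO input, without overlap. AI987944 followed at -0.76, with Slc25a10, the mitochondrial dicarboxylate carrier, and Cfl2 at -0.75. Cfl2 therefore had lower input without Trim71 in experiment 1 and higher input without Ago2 in experiment 2, while Nptx1 was higher in both. In experiment 2 the edgeR input difference in Trim71KO cells was only -0.14 for Cfl2 (SE 0.12), and 0.62 for Nptx1 (SE 0.20).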

How the data were processed

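The authors deposited, per the file headers, one table per experiment that holds each gene's raw counts, its RPKM values and a gene length named for QuasR. Per the submitters' processing notes, bcl2fastq 2.20 and STAR 2.7.3a were used with the builds GRCm38 and mm10. The counting tool, its annotation and its use of strand are not given in the sources used here, so overlapping, antisense and near-identical genes are uncertain. Libraries were mapped to groups by their titles, and 0 columns were left unmapped. CPM is the deposited count over the column total. Members and gene lists were chosen with earlier results of these data known, and values of experiment 2 that the rule used are described only. The edgeR fit of experiment 2 gives the share of genes called, and nothing is read from the members' calls there.

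Counts were tested with edgeR 4.0.16 (R 4.3.3) by the quasi-likelihood test, with TMM, filterByExpr, a mean per group and all libraries of an experiment in the fit, and Benjamini-Hochberg adjustment over 18772 genes in experiment 1 and 19778 in experiment 2. A call is an adjusted p under 0.05. Enrichment is the IP to input log2 ratio of a genotype minus that of its reference, and SE is its standard error. The scripts were tested on simulated data. DESeq2 1.42.0 and other settings served as alternatives. Pandas 2.3.3 and matplotlib 3.10.9 were used. Depth ran from 12587257 to 23657840 counts per library, and reads without molecular identifiers are not independent molecules. Replicate pairs differed beyond sampling noise (chi-square per gene 2.87 to 64.1 over 42 pairs), so each library counted as a replicate. Tests of tagged against Trim71KO and against untagged cells share the tagged libraries. RPKM was used only to compare levels between groups of genes.

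Genes named in the text were the 12 with the largest loss without Ago2 in experiment 2, the 6 with the highest tagged IP level and the 6 with the highest tag difference, the 4 genes on either side of the -0.7 limit, in experiment 1 the 5 largest changes each way among calls of each comparison, listed members of pathway lists, and the 4 highest and 4 lowest input changes in Ago2KO cells. Other genes are members of a family list, of the 15 calls, or are said to be chosen after their values were seen. Coordinates are those of RefSeq on GRCm38.p6, matched by Entrez gene identifier for 134 of 144 genes.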

Additional observations from a re-analysis of the deposited data

How the results depend on the processing

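The number of RNAs meeting the rule was 144. It was 153 and 135 with pseudocounts of 0.1 and 1, 144 with a mean of logs, 129 with an input floor of 5, and 242 with TMM-adjusted library sizes, which held 135 of the 144. Leaving out single libraries of experiment 2 gave 101 to 203. All 144 were called in tag-specific enrichment of experiment 1 under every alternative run, the replicate block and each left-out library included. The 15 calls in Trim71-dependent enrichment, all lower, were 9 with RLE size factors and 7 with only the groups compared, again all lower. They were 6 with library size alone (5 lower, 1 higher), 17 with DESeq2 (16 lower, 1 higher) and 2 to 29 in both directions together without single libraries. The cause was not tested. The 53 input calls of Trim71KO against tagged cells in experiment 1 (21 higher and 32 lower) were 38 to 55 without single libraries. With the replicate number as a block, 17 RNAs were called in Trim71-dependent enrichment, 13 of them among the 15, and 59 in input. Same-numbered libraries did not all deviate together (lowest correlation -0.06 for IP and -0.09 for input of Trim71KO and tagged cells, and 0.67, 0.09 and 0.50 for the 3 pairs of Ago2KO and tagged IP), so the numbers are not taken to pair the samples. No result reversed its direction under an alternative run. Depth limits RNAs of low input such as Nptx1 and Smim3.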
